A study of Homo sapiens with 38 samples.

Results

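Human neural progenitor cells that received a WNT activator at 2.0 µM (CT2.0) were compared at day 4 with cells that received it at 1.0 µM (CT1.0). The comparison rests on 4 of the 38 libraries of the series, 2 at each concentration, chosen by the condition and the day in their column names. All 4 libraries hold poly(A) RNA of progenitors differentiated from H9, an established human embryonic stem cell line, here of wild-type genotype, with no inhibitor and no retinoic acid added. CT is the name the labels use for the activator, and they leave it unexpanded. Elsewhere the series spans a wider range of CT, a WNT secretion inhibitor (IWP2, 2 µM) and CT with retinoic acid (1.0 µM), at days 4 and 8. The same step at day 8 (4 libraries) and the CT3.0 cells at day 4 (2 libraries) serve below as comparisons. The submitters call the libraries biological replicates without saying whether they came from separate differentiations, so the tests measure the spread between these libraries.

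The hindbrain of the vertebrate embryo is divided along its length into rhombomeres, and each is told apart by the HOX genes and other transcription factors it expresses. HOX genes lie in 4 clusters, and those at one end of a cluster are expressed from farther forward in the hindbrain than those at the other. WNT signalling pushes neural tissue towards posterior identities, and its activity is usually read through targets such as AXIN2, LEF1 and SP5. Retinoic acid, which is bound by proteins such as CRABP1 and degraded by the CYP26 enzymes, patterns the hindbrain together with WNT and FGF signals.

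The step is described as one from rostral to middle hindbrain. Of the 5 markers given for it, 4 rose. HOXB1, EGR2, GALP and CRABP1 were the markers that rose, whereas HOXA2 was at 18.5 and 24.8 TPM at CT1.0 and at 21.7 and 23.2 TPM at CT2.0. TPM is a length-corrected transcript abundance whose sum is the same in every library. Of these markers HOXA2 and CRABP1 were already well above 1 TPM in both CT1.0 libraries.

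Of 28221 genes tested, 305 (1.08%) rose and 230 (0.815%) fell, which is 535 (1.90%) in all. Calls rest on limma and need both an adjusted p (Benjamini-Hochberg) under 0.05 and a change of 1 or more on the log2 scale. All fold changes are differences of log2(TPM + 1), CT2.0 minus CT1.0, given with their standard error. On this scale low genes appear to change less than they do. Among protein-coding genes, 220 of 15533 (1.42%) rose and 176 (1.13%) fell. These shares are the background for each count of list members below, and the lists were chosen with earlier results of these data known. The median fold change over all genes tested was 0.02, and 2973 higher and 1723 lower genes had an unadjusted p under 0.05. With 2 libraries a group, the 4 values did not overlap for 11504 genes (40.8%), so a lack of overlap alone says little. The test takes its estimate of spread from all 19 groups, since an exact permutation of 2 libraries against 2 cannot give a two-sided p below 0.333. When the 4 libraries were fitted alone, 39 genes passed as higher and 35 as lower, and 25 of the 535 calls were kept.

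Each of the 4 libraries was most alike to its own replicate. The Pearson r over log2(TPM + 1) was 0.9655 within CT1.0, 0.9642 within CT2.0 and 0.9528 to 0.9566 between them. Ribosomal protein genes took 29.8% and 29.3% of TPM at CT1.0 and 28.6% in each CT2.0 library, and mitochondrial genes between 6.91% and 7.85%. Sequencing depth is not kept in TPM, so counting error cannot be given. Replicate 2 of CT2.0 had higher levels of several posterior genes than replicate 1, and where a call rests on 1 library this is stated beside it.

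HOXB1 and its neighbours in the HOXB cluster were among the largest increases. HOXB1 (chr17:48528526-48531001, minus strand, hg38), a homeobox gene known from the fourth rhombomere, was at 0.111 and 0.112 TPM at CT1.0 and at 68.2 and 105 TPM at CT2.0. The difference was 6.27 ± 0.16 (adjusted p = 2.4e-17). HOXB2, which lies beside it, was listed at 0 in both CT1.0 libraries and at 59.1 and 76.7 TPM at CT2.0 (adjusted p = 4.1e-18). HOXB3 rose from 0.397 and 0.451 TPM to 13.6 and 34.5 TPM, a difference of 4.00 ± 0.30. In all 3 genes every CT2.0 library lay far above every CT1.0 library. For HOXB1 and HOXB2 a lack of overlap was required, since the largest increases were taken among genes without overlap. The antisense transcripts HOXB-AS1 and HOXB-AS3, which overlap these genes, were also called. HOXB-AS1 was listed at 0 in both CT1.0 libraries and at 95.6 and 161 TPM at CT2.0. HOXB-AS3 was listed at 0 and at 0.283 TPM at CT1.0 and was at 0.922 and 10.1 TPM at CT2.0, and its call was lost without CT2.0 replicate 2 or without either CT1.0 library. Whether the quantification used strand is not given in the sources used here, so reads of HOXB genes and their antisense partners may not be separable.

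The sequence before the start of HOXB1 is shown because it had the largest difference of the 5 markers and because HOX proteins are known to bind DNA together with PBX partners. The 250 bases upstream of the RefSeq start (GRCh38.p14, chr17:48531012-48531261, minus strand) are written 5′ to 3′, with capitals for the PBX-HOX motif TGATNNAT.
HOXB1: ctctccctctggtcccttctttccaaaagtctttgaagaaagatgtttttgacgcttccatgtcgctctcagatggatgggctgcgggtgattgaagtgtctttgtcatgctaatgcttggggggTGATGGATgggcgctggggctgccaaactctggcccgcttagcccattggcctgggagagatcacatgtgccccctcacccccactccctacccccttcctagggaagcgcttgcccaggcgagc
The motif occurred 1 time in this window on either strand. Of 35116 RefSeq promoter windows of the same length, 6.47% held it. It stood in 15 of 287 windows (5.23%) of the protein-coding genes that rose and in 10 of 239 windows (4.18%) of those that fell. A match is a string of letters and not a measured binding site.

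Among the 12 HOX genes of paralog groups 1 to 4, 5 rose, 0 fell and 7 were not called, with a median of 0.80 against 0.02 for all genes. They included HOXB1, HOXB2, HOXB3 and HOXA3. HOXA3 was at 0.472 and 0.0209 TPM at CT1.0 and at 0.691 and 3.22 TPM at CT2.0, and its call was lost without CT2.0 replicate 2 or CT1.0 replicate 2. Without CT2.0 replicate 2 the count of called members was 3. HOXA2, the neighbour of HOXA3, was not called, with a difference of 0.06 ± 0.19 (adjusted p = 0.993).

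None of the 16 tested members of paralog groups 5 to 13 was called in either direction by limma, and 3 had an unadjusted p under 0.05, all higher. Another 11 members did not reach the filter on low values. With 0.1 in place of 1 TPM added before the logarithm, and all libraries kept, HOXB9 was called higher. HOXB9, a gene of the trunk, had the largest difference in this group, from 0.182 and 0.0811 TPM to 0.444 and 5.67 TPM. HOXB4 likewise stood at 0.108 TPM in CT2.0 replicate 1 and at 1.85 TPM in replicate 2, against 0.101 and 0.0706 TPM at CT1.0. Summed over the paralog groups 5 to 13, the level was 1.19 and 1.45 TPM at CT1.0, 1.74 TPM in CT2.0 replicate 1 and 10.4 TPM in replicate 2. HOXB4 and HOXB9 were called when CT2.0 replicate 1 was left out, and 2 members of these groups then passed. The caudal and axial progenitor list had 0 called of 11 tested members in limma, and before adjustment 3 had a p under 0.05, of which 2 were higher. CYP26A1, a member, was called lower with the filter raised to 5 TPM and with protein-coding genes alone. In that list 1 member was called higher without CT2.0 replicate 1, and 1 lower with TMM scaling.

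**Figure D1:**
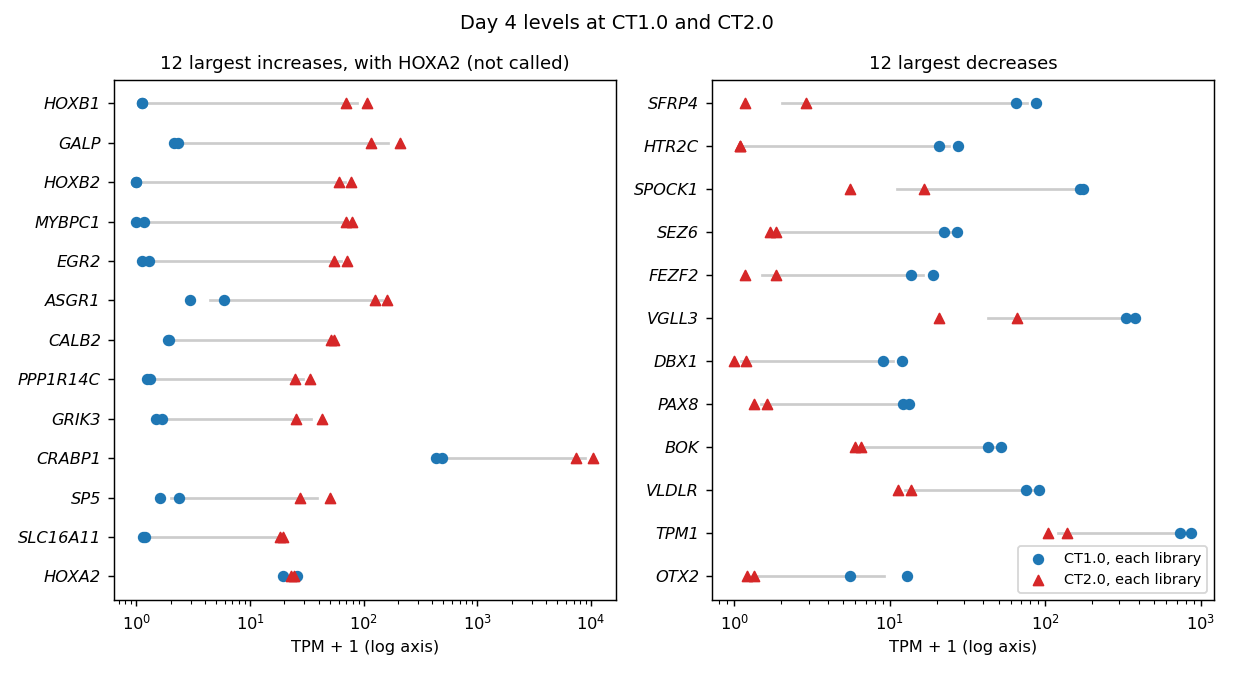
TPM + 1 (log axis) in each CT1.0 library (circles) and each CT2.0 library (triangles) at day 4, for the 12 largest increases and HOXA2 (left) and the 12 largest decreases (right) among named protein-coding genes. Grey lines join the means of the 2 libraries of a group. The 12 genes of each side were chosen among those whose groups do not overlap. The groups overlap for HOXA2, and CRABP1 reaches 7391 and 10434 TPM at CT2.0.

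HOX proteins act with cofactors of the PBX, MEIS and PKNOX families. MEIS1, one of these, rose from 3.34 and 1.29 TPM to 22.9 and 31.2 TPM (3.14 ± 0.34). PKNOX1 was at 7.63 and 5.75 TPM at CT1.0 and at 13.2 and 20.3 TPM at CT2.0, and its call was lost without CT1.0 replicate 2 or CT2.0 replicate 2. The other 7 of the 9 cofactors were not called. MEIS2, the most abundant MEIS gene here, was at 70.0 and 79.2 TPM and then at 99.2 and 108 TPM.

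Other transcription factors of the rhombomeres moved with the HOXB genes. EGR2 (also known as KROX20), which marks the third and the fifth rhombomere, was at 0.113 and 0.289 TPM at CT1.0 and at 69.9 and 53.9 TPM at CT2.0. The difference was 5.70 ± 0.26 (adjusted p = 1.4e-12), and it also passed with the 4 libraries alone. The other markers that rose, HOXB1, GALP and CRABP1, did not pass in that smaller fit. GBX1, a homeobox gene, rose from 0.185 and 0.0678 TPM to 5.52 and 7.75 TPM. FGF3, a signal known from the hindbrain, was listed at 0 and at 0.193 TPM at CT1.0 and was at 1.61 and 1.88 TPM at CT2.0. Across the list of non-HOX rhombomere genes, 5 rose, 1 fell and 7 were not called of 13 tested, with a median of 0.81. The remaining risers were SP5 and IRX3, and the IRX3 call was lost without CT2.0 replicate 2 or without either CT1.0 library. GBX2, a gene of the anterior hindbrain, was at 11.9 and 9.37 TPM and then at 14.2 and 14.7 TPM, without passing.

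The one member of that list that fell was VGLL3, a cofactor of TEAD transcription factors. It was at 331 and 375 TPM at CT1.0 and at 64.3 and 19.6 TPM at CT2.0 (-3.27 ± 0.37). Both CT2.0 values lay below both CT1.0 values, though they differed from each other by more than the CT1.0 values did. A lack of overlap was required here, since VGLL3 was among the largest decreases, which were taken among genes without overlap.

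**Figure D2:**
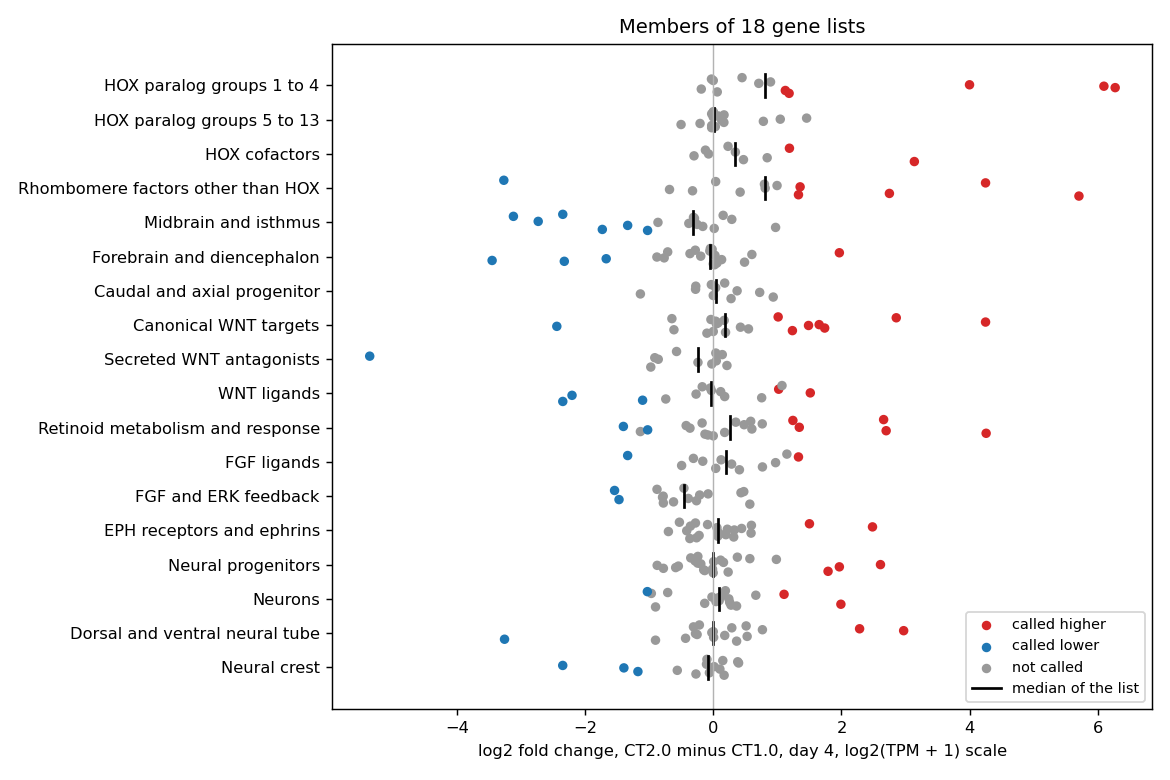
Log2 fold change of CT2.0 minus CT1.0 at day 4 on the log2(TPM + 1) scale (x axis) for tested members of 18 gene lists (rows). Each point is a gene, coloured by its call, and black bars are list medians. Lists of early HOX genes and rhombomere factors have medians of 0.80 and 0.81, and no midbrain and isthmus gene was called higher.

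Several genes of more anterior brain regions fell. Of 17 tested midbrain and isthmus genes, 6 fell and 0 rose, with a median of -0.31. The shares over all genes tested were 0.815% and 1.08%. OTX2, which specifies forebrain and midbrain, was at 11.8 and 4.55 TPM at CT1.0 and at 0.338 and 0.206 TPM at CT2.0 (-2.73 ± 0.27, adjusted p = 3.6e-07). PAX8 fell from 12.3 and 11.2 TPM to 0.343 and 0.608 TPM (-3.12 ± 0.32). WNT1, secreted at the border of midbrain and hindbrain, fell from 5.59 and 4.10 TPM to 0.171 and 0.108 TPM. EN1, a homeobox gene of the same border, was at 3.09 and 1.76 TPM at CT1.0 and was listed at 0 and 0.0250 TPM at CT2.0. Each of these genes was already at a low level at CT1.0. FGF8, the organizing signal of the isthmus, was at 20.8 and 13.1 TPM and then at 7.94 and 4.38 TPM (-1.34 ± 0.27), and it was not called without CT1.0 replicate 1 or CT2.0 replicate 2. DMBX1 was the sixth gene that fell. Without CT1.0 replicate 1 or CT2.0 replicate 1, 1 member of the list was called higher.

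Of 20 tested genes of forebrain and diencephalon, 3 fell, 1 rose and 16 were not called. FEZF2, a forebrain transcription factor, fell from 12.6 and 18 TPM to 0.846 and 0.168 TPM (-3.45 ± 0.36). FEZF1, its relative, fell from 9.77 and 6.69 TPM to 2.07 and 0.0777 TPM. PAX6, which is expressed in both forebrain and hindbrain progenitors, was the member that rose, from 8.13 and 5.47 TPM to 25.3 and 33.4 TPM (1.97 ± 0.16). SOX21 and WNT8B, the genes named in the title of the series, were not called. SOX21 was at 100 and 109 TPM at CT1.0 and at 107 and 103 TPM at CT2.0, and WNT8B did not exceed 0.0702 TPM in any of the 4 libraries.

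Several canonical WNT targets rose. Of 20 tested targets, 7 rose, 1 fell and 12 were not called, with a median of 0.18. Over all genes tested, 1.08% rose and 0.815% fell. SP5, a transcription factor induced directly by WNT, rose from 1.39 and 0.610 TPM to 26.3 and 49.9 TPM (4.25 ± 0.52). TNFRSF19, a receptor of the TNF family, rose from 10.5 and 7.65 TPM to 62.1 and 81.7 TPM (2.85 ± 0.21). LEF1, a DNA-binding partner of beta-catenin, rose from 14.9 and 12.5 TPM to 44.8 and 51.4 TPM (1.74 ± 0.15). AXIN2, a feedback inhibitor of the pathway, rose from 22.6 and 24.5 TPM to 60.5 and 53 TPM (1.23 ± 0.24). The groups did not overlap in any of these 4 genes, nor did they for 40.8% of all genes tested. For SP5 this was required, since it was among the 12 largest increases. NKD1, NKD2 and ZNRF3, also feedback inhibitors, completed the 7, and ZNRF3 was not called under TMM scaling or without CT2.0 replicate 1. MYC, a growth regulator counted among WNT targets, went the other way. It was at 22.1 and 22.4 TPM at CT1.0 and at 3.40 and 3.17 TPM at CT2.0 (-2.44 ± 0.21, adjusted p = 5.7e-08).

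The sequence before SP5 is shown because this gene moved most among the WNT targets and carries several copies of the core that TCF and LEF proteins recognize. The 250 bases upstream of its RefSeq start (GRCh38.p14, chr2:170715087-170715336, plus strand) are written 5′ to 3′, with capitals for the motif CTTTGA on either strand.
SP5: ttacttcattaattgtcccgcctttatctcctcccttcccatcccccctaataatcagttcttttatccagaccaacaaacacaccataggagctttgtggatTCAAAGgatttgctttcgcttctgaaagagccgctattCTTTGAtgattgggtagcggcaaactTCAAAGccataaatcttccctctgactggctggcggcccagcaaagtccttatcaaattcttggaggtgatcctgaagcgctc
The window held 3 matches, and 0.0655% of the 35116 windows held 3 or more. These copies were a ground for showing the window, so that share is a description only. Here too a match is a string of letters and not a measured binding site. One match or more stood in 11.2% of all windows, in 27 of 287 windows (9.41%) of protein-coding genes that rose and in 16 of 239 windows (6.69%) of those that fell. The HOXB1 window held 1 match to this motif, which does not overlap its PBX-HOX match.

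Among WNT ligands, members moved in both directions. WNT5B, a ligand of the non-canonical branch, rose from 2.52 and 2.93 TPM to 9.11 and 10.2 TPM, and WNT8A was the other ligand of 14 tested that rose. The WNT8A call was lost with TMM scaling, and without CT1.0 replicate 1 or CT2.0 replicate 2. WNT1, WNT4 and WNT10B fell. WNT4 fell from 6.59 and 2.45 TPM to 0.129 and 0.0937 TPM, while the WNT10B call was lost without CT1.0 replicate 1 or without either CT2.0 library. SFRP4, a secreted antagonist, had the largest decrease of any called gene, from 63.9 and 86.0 TPM to 1.88 and 0.164 TPM (-5.36 ± 0.38, adjusted p = 3.0e-09). The other 10 tested antagonists were not called, but 3 antagonists passed as lower without CT2.0 replicate 1, SFRP1 among them, and 2 with TMM scaling. SFRP1 and SFRP2, the most abundant, were also lower in both CT2.0 libraries, SFRP1 at 481 and 447 TPM and then at 283 and 230 TPM, and SFRP2 at 203 and 214 TPM and then at 111 and 110 TPM.

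CRABP1, a cytoplasmic protein that binds retinoic acid, reached a level far above that of the other retinoid genes. It was at 432 and 487 TPM at CT1.0 and at 7391 and 10434 TPM at CT2.0 (4.26 ± 0.45, adjusted p = 9.6e-07). It took 0.0432% and 0.0487% of all TPM at CT1.0 and 0.739% and 1.04% at CT2.0. CYP26B1, an enzyme that degrades retinoic acid, rose from 0.101 and 0.286 TPM to 6.24 and 7.23 TPM (2.70 ± 0.26). The zinc finger gene TSHZ1 rose from 0.540 and 0.622 TPM to 7.41 and 10.8 TPM (2.66 ± 0.24). RARA, a retinoic acid receptor, and STRA6, a receptor for retinol uptake, also rose, and the STRA6 call was lost without CT2.0 replicate 2. RARB, a receptor that is itself a target of retinoic acid, fell from 11.6 and 14.1 TPM to 3.73 and 4.75 TPM (-1.40 ± 0.21), and DHRS3 was the other member that fell. In all, 5 of 20 tested retinoid genes rose, 2 fell and 13 were not called. The DHRS3 call was lost without either CT1.0 library or CT2.0 replicate 2. CYP26A1 was at 259 and 314 TPM and then at 143 and 117 TPM, a difference of -1.14. It narrowly missed the cutoff in the main limma fit (adjusted p = 0.05). It passed under TMM scaling, with the filter raised to 5 TPM and with protein-coding genes alone. CRABP2, the paralog of CRABP1, stayed between 393 and 475 TPM in the 4 libraries.

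FGF feedback genes were lower in part. SPRY1, an inhibitor of receptor tyrosine kinase signalling, fell from 11.2 and 13.5 TPM to 3.65 and 3.49 TPM (-1.54 ± 0.16). ETV1, a transcription factor downstream of FGF, fell from 14.3 and 11.2 TPM to 4.36 and 3.52 TPM. The other 13 tested genes of this list were not called, and its median was -0.46. Of 12 tested FGF ligands, FGF3 rose and FGF8 fell, and 2 ligands were called higher without CT1.0 replicate 1 or CT2.0 replicate 1.

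Surface molecules of segment borders changed in a few members. EPHA7, an ephrin receptor, rose from 6.09 and 5.73 TPM to 28.9 and 48.9 TPM (2.48 ± 0.18), and EPHB3 rose from 5.94 and 5.68 TPM to 19.6 and 17 TPM. The other 20 of the 22 tested EPH receptors and ephrins were not called. EPHA4, known from the same rhombomeres as EGR2, was at 86.9 and 76.6 TPM and then at 108 and 83.6 TPM.

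General neural progenitor genes were mostly not called, with 3 of 23 tested higher and 0 lower, or 1 lower without CT2.0 replicate 1. POU3F2, a POU domain factor, rose from 12.7 and 12 TPM to 71.1 and 91.0 TPM (2.61 ± 0.13). HES5, a NOTCH target, rose from 4.02 and 6.75 TPM to 22.3 and 19.0 TPM but was not called with a smaller pseudocount of 0.1. PAX6 was the third. SOX2, which maintains progenitors, was at 287 and 297 TPM and then at 323 and 329 TPM. VIM was at 437 and 452 TPM and then at 878 and 883 TPM, just under the fold threshold (0.98).

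Along the dorsoventral axis, 2 of 18 tested genes rose and 1 fell, or 2 fell without CT1.0 replicate 1 or CT2.0 replicate 2. NKX6-1, a ventral progenitor factor, rose from 0.0905 and 0.134 TPM to 6.16 and 9.60 TPM (2.97 ± 0.40). OLIG3, a dorsal progenitor factor, rose from 0.0331 and 0.0353 TPM to 5.75 and 2.75 TPM (2.28 ± 0.36). DBX1, of the intermediate domain, fell from 11 and 8.07 TPM to 0.194 TPM in CT2.0 replicate 1 and was listed at 0 in replicate 2 (-3.26 ± 0.38). Among 19 tested neuronal genes, ELAVL4 rose from 0.607 and 0.909 TPM to 5.79 and 6.14 TPM. ONECUT2 was called higher and STMN2 lower, the ONECUT2 call lost without CT2.0 replicate 2 and the STMN2 call without CT1.0 replicate 1 or CT2.0 replicate 1. Other neuronal genes were called lower in its place without CT2.0 replicate 1, and 2 were lower with TMM scaling. TUBB3, a tubulin of neurons, was not called, at 99.9 to 127 TPM over the 4 libraries.

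Marker lists of other cell types were measured in the same libraries. Of 14 tested neural crest genes, 3 fell and 0 rose, and 2 fell when any 1 of the 4 libraries was left out. SNAI2, which is expressed in neural crest and other migratory cells, fell from 24.6 and 21.7 TPM to 5.18 and 2.63 TPM (-2.35 ± 0.27). RET, a receptor tyrosine kinase, fell from 2.34 and 4.40 TPM to 0.603 and 0.629 TPM. The defining crest genes SOX10 and FOXD3 did not exceed 0.153 TPM, and the summed crest list was 149 to 152 TPM at CT1.0 and 121 to 135 TPM at CT2.0. The endoderm list summed to 3.27 to 4.89 TPM and then to 17.8 to 21.1 TPM, which is nearly all CXCR4, a chemokine receptor that rose from 3.86 and 1.97 TPM to 20.5 and 16.1 TPM. SOX17, the defining endoderm gene, was listed at 0 in all 4 libraries. The mesoderm list summed to 4.90 to 6.40 TPM and then to 5.68 and 12.7 TPM, and its called member TCF15 (3.21 and 9.58 TPM at CT2.0) lost its call without CT2.0 replicate 2. Of 17 tested pluripotency genes, PRDM14 and L1TD1 fell and 0 rose, and the L1TD1 call was lost whichever of the 4 libraries was left out. The part of other cell types in the results was not tested, and in bulk RNA fewer cells of a type cannot be told apart from less RNA per cell. None of the 18 proliferation genes, 18 stress and p53 targets and 20 cholesterol synthesis genes was called by limma, with 2 to 4 in each of these lists higher at an unadjusted p under 0.05 and 0 to 3 lower.

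Several of the largest increases belonged to genes outside the patterning lists. GALP, which encodes galanin-like peptide, rose from 1.30 and 1.16 TPM to 115 and 207 TPM (6.12 ± 0.43, adjusted p = 2.5e-09), while the other 13 tested peptide hormone genes were not called. MYBPC1, a myosin-binding protein of slow muscle, was at 0.171 TPM and listed at 0 at CT1.0 and was at 68.5 and 77.5 TPM at CT2.0 (6.09 ± 0.16). CALB2, the calcium-binding protein calretinin, rose from 0.928 and 0.880 TPM to 54.2 and 50.4 TPM (4.81 ± 0.35). The phosphatase inhibitor PPP1R14C rose to 23.8 and 32.6 TPM and the kainate receptor subunit GRIK3 to 24.5 and 42.0 TPM, both from under 1 TPM. For each of these genes the CT2.0 libraries lay above both CT1.0 libraries. That separation was required, since the largest increases were taken among genes whose groups did not overlap. Of all genes tested, 40.8% also showed no overlap.

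ASGR1, a receptor subunit known from liver, rose with a run of neighbouring genes on chromosome 17. It was at 1.97 and 4.86 TPM at CT1.0 and at 125 and 160 TPM at CT2.0 (5.09 ± 0.25, adjusted p = 4.2e-12). Within 200 kb on either side (chr17:6985494-7357219, hg38) the annotation has 43 genes, of which 32 were tested, 10 rose and 0 fell. The region was chosen after its values were seen. The 10 lay next to one another among the tested genes. The monocarboxylate transporter genes SLC16A13 and SLC16A11 were in the run, SLC16A13 rising from 2.83 and 3.31 TPM to 20.3 and 23.3 TPM and SLC16A11 from 0.154 and 0.193 TPM to 17.4 and 18.6 TPM. CLEC10A, a lectin gene, was listed at 0 in both CT1.0 libraries and at 11.4 and 18.5 TPM at CT2.0. ASGR2, the partner subunit of ASGR1, was at 0.108 TPM and listed at 0 at CT1.0 and at 5.05 and 5.19 TPM at CT2.0. BCL6B (2.03 ± 0.32) was the first called gene on one side and DLG4 (1.27 ± 0.12), with a short transcript inside it, the last on the other. The run also held 2 processed pseudogenes. The edge was not sharp on the DLG4 side. ACADVL, the next tested gene there, was at 99.0 and 90.9 TPM and then at 153 and 174 TPM (0.77, adjusted p = 9.6e-04), under the fold threshold. PHF23 (0.41), DVL2 (0.31) and KCTD11 (0.90) likewise had an adjusted p under 0.05 without reaching that threshold. GABARAP was at 348 and 317 TPM and then at 351 and 328 TPM, and no gene of the region was called for the same step at day 8. How far reads of one gene could be assigned to its neighbours was not tested.

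**Figure D3:**
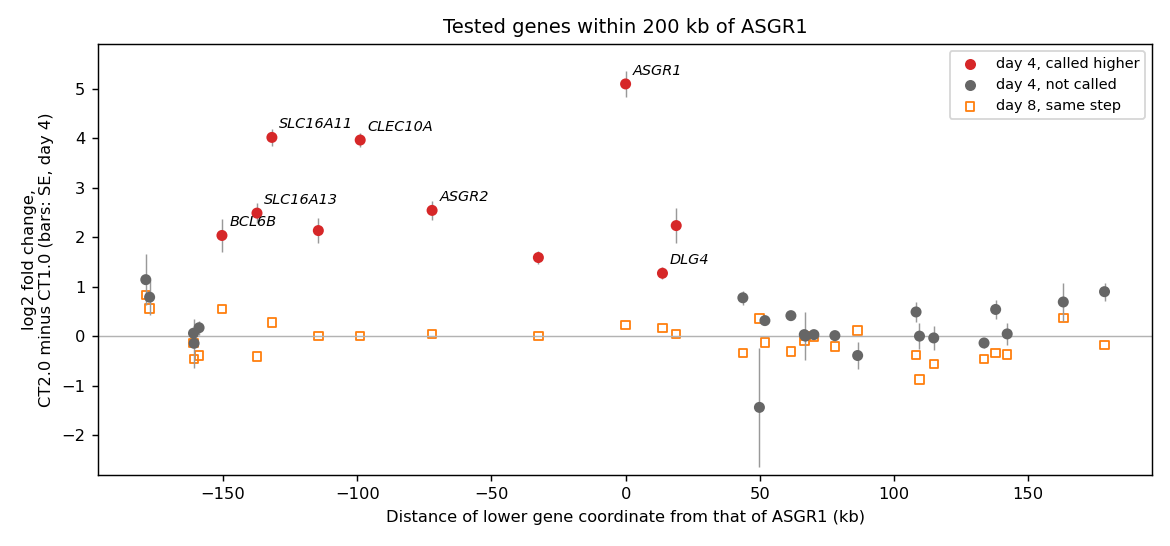
Log2 fold change of CT2.0 minus CT1.0 (y axis, bars are standard errors at day 4) against the distance in kb between the lower coordinate of each gene and that of ASGR1 (x axis), for the 32 tested genes. Filled points are day 4 and open squares the same step at day 8. The 10 genes called higher at day 4 form 1 run with no day 8 call, and values for genes listed at 0 at CT1.0 depend on the added 1 TPM.

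Around CRABP1 fewer genes were called. Of 11 tested genes within 200 kb on either side, 2 rose, CRABP1 itself and an overlapping unnamed transcript, and 9 were not called. Among those not called, IREB2 was at 34.4 and 43.2 TPM and then at 51.9 and 69.4 TPM. Its difference (0.63, adjusted p = 0.00588 in limma) was under the fold threshold.

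The largest decreases after SFRP4 included genes outside the patterning lists. HTR2C, a serotonin receptor, fell from 19.8 and 26.5 TPM to 0.0930 and 0.0917 TPM (-4.45 ± 0.22, adjusted p = 4.2e-12). SPOCK1, a secreted proteoglycan, fell from 165 and 174 TPM to 15.6 and 4.50 TPM (-4.16 ± 0.33). SEZ6, a neuronal membrane protein, fell from 21.4 and 26.2 TPM to 0.855 and 0.687 TPM. VLDLR, a lipoprotein and reelin receptor, fell from 74.5 and 89.9 TPM to 12.6 and 10.3 TPM. The tropomyosin gene TPM1, the most abundant of the 12 largest decreases, fell from 730 and 868 TPM to 137 and 103 TPM (-2.74 ± 0.19). BOK, a member of the BCL2 family, fell from 41.8 and 50.7 TPM to 5.53 and 4.95 TPM. SLC2A3, a glucose transporter, fell from 318 and 290 TPM to 67.2 and 52.9 TPM (-2.33 ± 0.17), and it was the one gene called lower of 16 tested hypoxia and glycolysis genes. In each of these 7 genes both CT2.0 libraries lay below both CT1.0 libraries. For all but SLC2A3 this was required, since the 12 largest decreases were taken among genes without overlap.

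The same step at day 8 tested which differences persisted. In limma 194 genes (0.687%) rose and 304 (1.08%) fell between CT1.0 and CT2.0 at day 8. Of the 305 genes that rose at day 4, 59 were also called higher at day 8, which is 19.3% of the day 4 calls and 30.4% of the day 8 calls, and 5 were called lower. Of the 230 genes that fell at day 4, 74 also fell at day 8, 32.2% of the day 4 calls and 24.3% of the day 8 calls, and 2 rose. The median fold change of the day 4 risers was 1.51 at day 4 and 0.36 at day 8, and that of the genes that fell was -1.44 and -0.66. Genes chosen for passing at day 4 lie on average closer to 0 on another day, so these medians are given as a description.

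The HOXB genes and EGR2 held their difference. HOXB1 was listed at 0 in both CT1.0 libraries at day 8 and was at 90.7 and 107 TPM at CT2.0. HOXB2 was at 84.2 and 85.5 TPM and HOXB3 at 42.5 and 47.9 TPM at CT2.0, against under 1 TPM at CT1.0. EGR2 was at 38.3 and 24.2 TPM at CT2.0 and at 0.253 and 0.321 TPM at CT1.0. The difference between days was not called for any of these 4 genes. SFRP4 (-4.28), FEZF2 (-3.73) and WNT1 (-2.67) remained called lower at day 8.

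CRABP1, GALP and ASGR1 did not hold theirs, and each difference between days was called. CRABP1 was at 5609 and 5755 TPM at CT1.0 and at 4544 and 4176 TPM at CT2.0 on day 8; this difference was not called (-0.38 ± 0.45, adjusted p = 0.779). The step for CRABP1 was 4.64 ± 0.63 log2 units smaller at day 8 (adjusted p = 1.3e-04). GALP was at 1.61 and 5.68 TPM at CT2.0 on day 8, and ASGR1 was at 19.3 and 19.1 TPM at CT2.0 and at 13.3 and 20.0 TPM at CT1.0. SP5 had also returned to 0.311 and 1.37 TPM at CT2.0. DBX1 turned round, since at day 8 it was at 12.4 and 14.7 TPM at CT1.0 and at 46.8 and 25.2 TPM at CT2.0.

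Over all genes the step differed between the days for 428 genes (1.52%), with 300 (1.06%) lower and 128 (0.454%) higher at day 8. The median over all genes tested was -0.135, so the split between directions depends on scaling. With TMM scaling 175 genes were called higher and 168 lower, and after leaving out ribosomal protein and mitochondrial genes 138 higher and 192 lower. Beside this, the ribosomal protein share of TPM at day 8 was 22.6% and 24.1% at CT1.0 and 28.8% and 29.8% at CT2.0, a gap not present at day 4, and its part in the result was not tested.

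**Figure D4:**
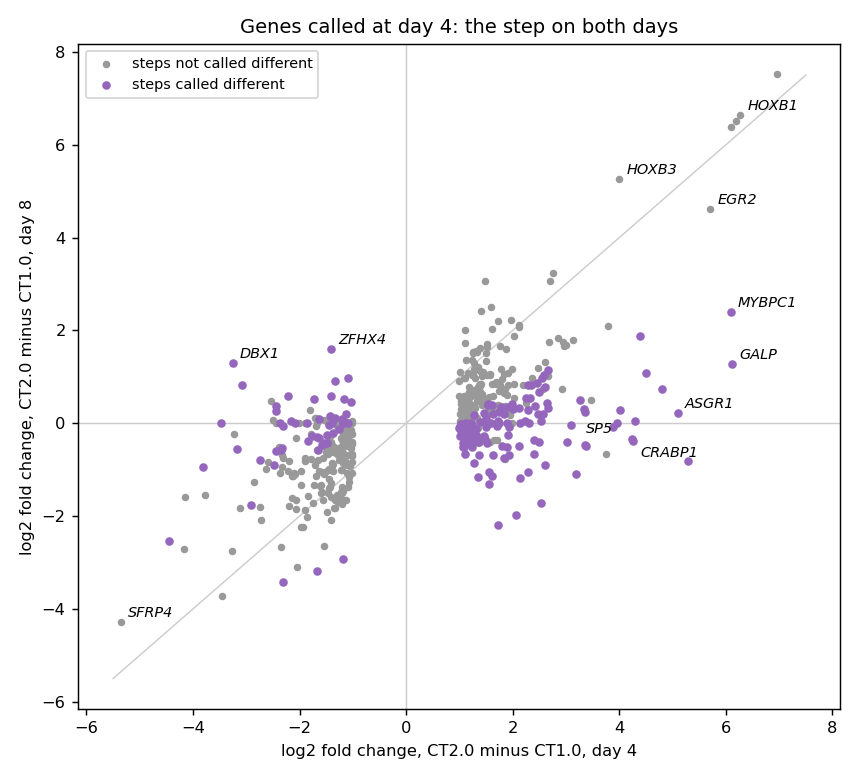
Log2 fold change of CT2.0 minus CT1.0 at day 8 (y axis) against day 4 (x axis) for the 535 genes called at day 4, on the log2(TPM + 1) scale. Purple points are genes whose step was called different between the days, and the grey diagonal marks equal steps. HOXB1, HOXB3 and EGR2 lie near the diagonal, and GALP, ASGR1, SP5 and CRABP1 lie far below it.

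The next step, from CT2.0 to CT3.0 at day 4, shares the CT2.0 libraries with the comparison, so the values are set side by side. The 2 steps differed for 1169 genes (4.14%), of which 540 (1.91%) had the higher value at the step to CT3.0 and 629 (2.23%) the lower. Each CT3.0 library correlated best with a CT4.0 library (0.9670 and 0.9665, against 0.9661 with each other). Of the 305 genes that rose to CT2.0, 136 were called lower at CT3.0 and 29 higher again, and 485 genes (1.72%) were called lower at that step in all. Of the 230 that fell, 25 were called higher at CT3.0 and 19 lower again, and 577 genes (2.04%) were called higher in all. The CT2.0 libraries enter the 2 steps with opposite sign, so their spread alone favours such reversals. These counts are therefore a description, and the shares over all genes are not a fair baseline for them.

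Along the doses EGR2, GALP, MYBPC1 and CRABP1 were each higher at CT2.0 on day 4 than in any of the other groups of the series. EGR2 was at 0.246 and 0.408 TPM at CT3.0, and GALP was at 1.86 and 0.276 TPM. CRABP1 was at 216 and 39.8 TPM at CT3.0, below its CT1.0 level. MYBPC1 was at 0.0216 TPM in one CT3.0 library and listed at 0 in the other. HOXB3 and SP5 rose again, HOXB3 to 645 and 662 TPM and SP5 to 272 and 166 TPM at CT3.0. HOXB1 was lower at CT3.0, at 50.1 and 36.5 TPM, a difference from CT2.0 of -0.97 ± 0.16 that was just under the fold threshold. SP5 was not monotonic below the step either, at 32.7 and 14 TPM with CT0.8. Of the genes that fell, FGF8 was at 109 and 115 TPM and PAX8 at 8.26 and 2.95 TPM at CT3.0, while OTX2 stayed below 0.5 TPM.

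**Figure D5:**
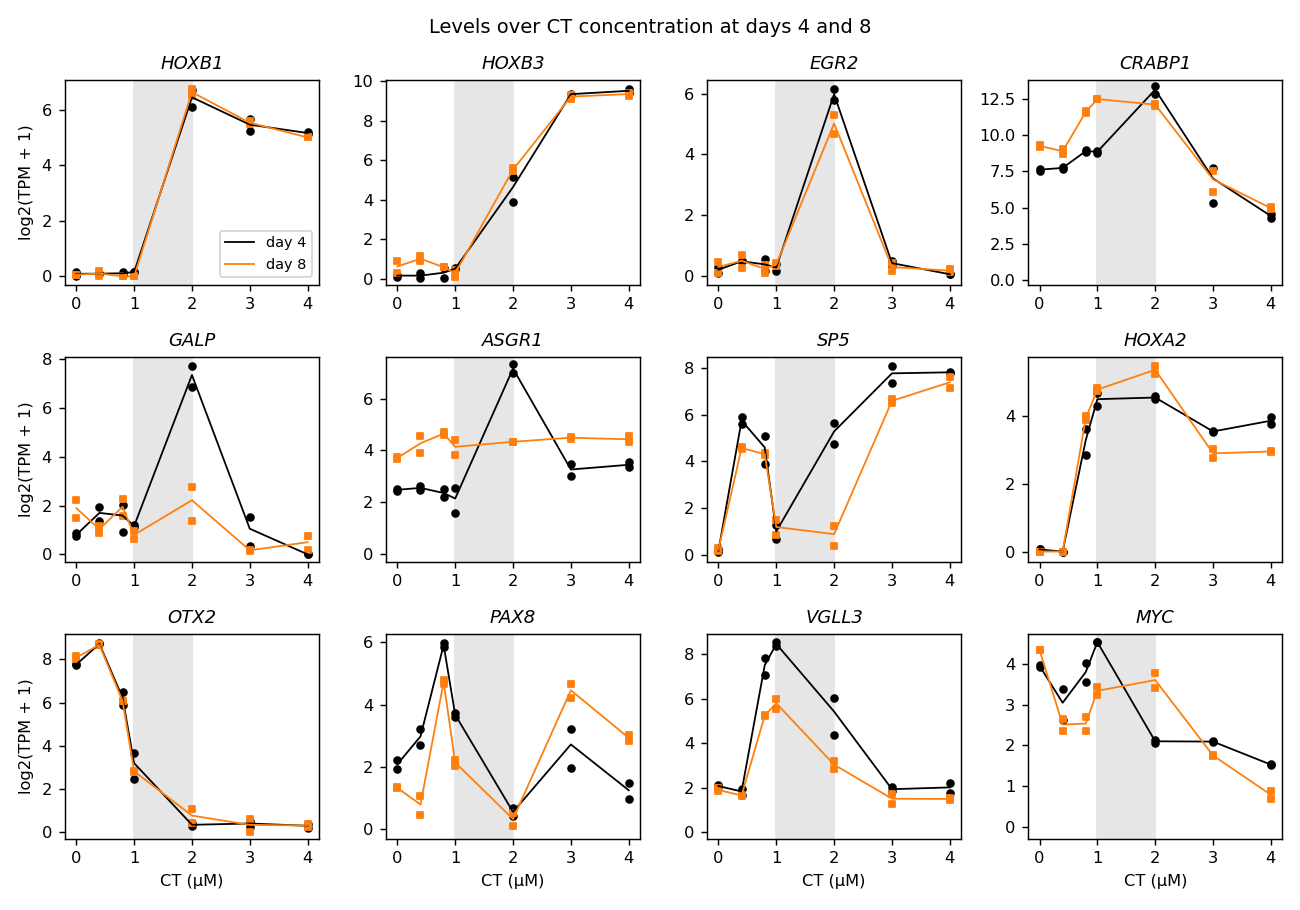
Log2(TPM + 1) (y axis) against CT concentration in µM (x axis) for 12 genes at day 4 (black circles) and day 8 (orange squares). Points are single libraries, lines join log2 of the group means plus 1, and the grey band is the step from 1.0 to 2.0 µM. EGR2, GALP, ASGR1 and CRABP1 peak at CT2.0 on day 4, and EGR2 is also highest at CT2.0 on day 8.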

How the data were processed

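Poly(A) RNA libraries of H9-derived cells were analysed from a deposited table of TPM values, 1 per gene and library. The authors named CASAVA 1.7, hg38 and Salmon 0.8.2 for making it, per the submitters' processing notes. Settings, strand and annotation were not stated. Of its 58219 genes, 57881 were matched to GENCODE 29 for position. TPM keeps no depth. Genes at 1 TPM or more in at least 2 of 38 libraries were kept. limma 3.58.1 (R 4.3.3; lmFit, contrasts.fit, eBayes with trend) was fitted to log2(TPM + 1) over 19 group means, with 19 residual degrees of freedom, and tested on simulated data. TMM scaling was computed as a trimmed mean of log ratios.

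Same-numbered libraries did not deviate together (r = -0.0094 between CT1.0 and CT2.0), so the main fit has no block. Named genes are the 5 markers, WNT8B and SOX21, in each direction the 12 strongest called protein-coding changes, the 4 largest called and 2 highest uncalled per list, and the 4 largest in each direction of the contrasts with day 8 and CT3.0. The 12 strongest were taken only among genes whose CT1.0 and CT2.0 libraries did not overlap. AXIN2, NKD1, NKD2, ZNRF3, HOXA3, IRX3, DMBX1, WNT8A, RARA, STRA6, DHRS3, GBX2, SOX2, SOX10, FOXD3, SOX17, GABARAP, the antisense transcripts and the neighbours of ASGR1 were named after their values were seen. The comparison and all 30 lists were chosen with earlier results of these data known. Promoter windows are RefSeq's (GRCh38.p14), and 18 of the 24 largest changes had an entry. Some genes the rule names are not reported here. No library was left out of the main fit.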

Additional observations from a re-analysis of the deposited data

Results flagged for a closer look

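For the same step from CT1.0 to CT2.0, the interaction contrast in limma (day 8 minus day 4) called 300 genes lower and 128 higher. Of 130 genes named by rule and reported, 41 differed between the days, against 428 (1.52%) of all genes tested. Large day 4 changes and calls of this same contrast were among the grounds for naming, so the 2 shares cannot be compared. The values that follow are differences of log2 fold changes, day 8 minus day 4, and no explanation was tested.

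Genes whose step was lower at day 8 include the large day 4 risers ASGR1 (-4.87), GALP (-4.85), CRABP1 (-4.64), SP5 (-4.58) and CALB2 (-4.06). SLC16A11 (-3.73), MYBPC1 (-3.70), PPP1R14C (-3.41), OLIG3 (-3.33), GRIK3 (-2.52) and EPHA7 (-2.28) follow. Smaller differences were found for POU3F2 (-1.83), LEF1 (-1.74), EPHB3 (-1.58), NOG (-1.57), TSHZ1 (-1.52), CXCR4 (-1.51) and ONECUT2 (-1.25). ADM (-2.51) was called higher at day 4 and lower at day 8, and its day 4 call was lost without CT1.0 replicate 1 or CT2.0 replicate 1. NMU (-1.81), ID3 (-1.33), CCND1 (-1.23) and DPPA4 (-1.19) were not called at day 4.

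Genes whose step was higher at day 8 were led by DBX1 (4.54) and ZFHX4 (3.01), which fell at day 4 and rose at day 8. SEZ6 (2.85), EBF2 (2.82), MYC (2.70), VLDLR (1.94), HTR2C (1.91), SLC2A3 (1.80), SNAI2 (1.77) and STMN2 (1.48) fell at day 4. FGF8 (1.44), PRDM14 (1.19), BOK (1.15) and SPRY1 (1.11) fell there as well. SFRP1 (1.78), EPHA4 (1.62), SFRP2 (1.61) and JAG1 (1.04) were not called at day 4. Of the 41 genes, 27 were called under every alternative, and 14 lost their call under at least 1. EPHB3 lost it under 12 of 15 alternatives, PRDM14 under 10, JAG1 under 8, FGF8 and ONECUT2 under 7 and EPHA4 under 6. BOK and SNAI2 lost it under 5 and TSHZ1 under 4. For each of these genes most of the alternatives concerned left out 1 library. CALB2, DPPA4, HTR2C, SEZ6 and SPRY1 lost it under 1 alternative each. With TMM scaling 38 were called, and EPHB3, DPPA4 and ONECUT2 were the 3 lost.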

How the results depend on the processing

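For CT2.0 against CT1.0 at day 4, the counts of genes called higher (305) and lower (230) stayed within 1.5 times under every alternative but one. With only the 4 libraries compared they were 39 and 35; fewer samples then give the estimate of spread. Leaving out 1 library at a time gave 228 to 400 higher and 170 to 284 lower. A fit on these libraries assumes that the lone library varies like the other groups. For the step at day 8 against day 4, the 300 genes called lower became 168 with TMM scaling and 192 after leaving out ribosomal protein and mitochondrial genes, and leaving out 1 library gave 89 to 133 higher and 207 to 335 lower. For the step to CT3.0 against the step to CT2.0, counts of 540 higher and 629 lower stayed within 1.5 times under every alternative. They were 602 and 651 with TMM scaling, and 543 and 693 after leaving out ribosomal protein and mitochondrial genes. With only the 18 day 4 libraries they were 464 and 543. HOXA2, not called, was at -0.02 with TMM scaling and between -0.14 and 0.26 when 1 library was left out, negative without CT1.0 replicate 1. With the replicate number as a block, 299 genes were called higher and 226 lower at day 4, 131 and 296 for the day 8 contrast and 551 and 637 for the CT3.0 contrast; deviations of same-numbered libraries correlated at -0.0427 to 0.0372 over 171 pairs of groups, so the numbers share a name only. With a pseudocount of 0.1, HOXB1 was at 8.65, so folds of genes near 0 at CT1.0 depend on this choice. Depth is unknown, which limits what can be said of values under 1 TPM.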

Other observations

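BMP pathway genes were not described above. ID1, a target of BMP signalling, was at 0.873 and 1.91 TPM at CT1.0 and at 17 and 11.4 TPM at CT2.0 (2.68 ± 0.31 in limma), and NOG, an extracellular BMP antagonist, rose from 0.724 and 1.28 TPM to 3.53 and 4.30 TPM. The other 17 tested members were not called, though 2 members were lower without CT1.0 replicate 1 and 1 without either CT2.0 library. At day 8 the ID1 step was again called higher (1.75), and the NOG step was -0.26.

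The placode list had 1 called member of 12 tested, EYA1, which was at 3.06 and 2.92 TPM and then at 7.05 and 10.5 TPM. KRT8 and KRT19, the most abundant uncalled members, were both lower in the CT2.0 libraries, by under 1 log2 unit, and the median of the list was -0.41. Neither was called, but 3 members of the list were called lower with TMM scaling, KRT8 and KRT19 among them. Leaving out 1 library gave 0 to 2 lower, with KRT8 called without CT1.0 replicate 1 or CT2.0 replicate 2 and KRT19 without CT2.0 replicate 1. Among 17 tested cadherins, PCDH8 and CDH7 were called higher, and the PCDH8 call was lost whichever of the 4 libraries was left out, the CDH7 call without either CT1.0 library or CT2.0 replicate 2. In the NOTCH list HES5 was the 1 gene called of 17.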
